A study of Mus musculus with 6 samples.

Results

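This account compares the 2 arrays from embryos homozygous for the STAT3-K177K180R allele with the 2 arrays from wild-type embryos, 4 of the 6 arrays of the study. By its name the allele puts arginine in place of 2 lysines of STAT3. All embryos were 12 days old and carried no other named allele or treatment. The submitters state that the embryos of the 3 genotypes shared a womb, so the wild-type embryos were littermates of the mutants, and whole embryos were hybridised, so fewer cells of a type and less RNA per cell cannot be told apart. The study names 2 independent experiments per genotype and does not say whether an array holds 1 embryo or several. The series title speaks of a defect in STAT3 secretion and of abnormal development, and the comparison asks how the transcripts of whole embryos differ when both copies of the allele are present.

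STAT3 is a transcription factor that cytokine receptors of the interleukin 6 family activate through JAK kinases. Once phosphorylated it pairs, enters the nucleus and binds the palindromic element TTCNNNGAA, and in the liver it drives the acute-phase genes, whose products are secreted into plasma. It also induces its own inhibitor Socs3, and embryos without the protein die early in gestation. Lysines of STAT3 can be acetylated, and an arginine in their place keeps the charge and cannot be acetylated.

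RNA was labelled with Cy3 and hybridised to Agilent 4x44K 1-colour mouse arrays of 43020 gene spots each. Every value below is log2 of the processed signal minus the 75th percentile of that array, so 0 is a bright spot, and a difference of 1 is a 2-fold change. The homozygous arrays were scanned together in one scan and the wild-type and heterozygous arrays in another, and each scan is taken here as 1 slide. The homozygous genotype and its slide therefore cannot be told apart in any result below. Negative controls had a median signal of 43.5 and 48 on the homozygous arrays against 26 on both wild-type arrays, and 74.6% and 72.0% of gene spots stood well above background on the homozygous arrays against 77.1% and 76.4%. For this reason the comparison is restricted to bright genes. A bright gene has a probe well above background on all 4 arrays and a mean of at least -1 over them, which is a processed signal of 430 and 393 on the homozygous arrays and 518 and 533 on the wild-type arrays. This mean takes in both genotypes, so a gene below -1 in 1 genotype can pass through its higher values in the other. Of 24353 genes tested, 11001 were bright, and 8807 of these had a gene symbol. Nearest to that limit, Gja5 (difference 0.52) and Tmod4 (0.73) lay just inside, and Fam118a (-0.26) and E2f5 (0.39) just outside. The Y-linked transcripts Ddx3y, Eif2s3y and Uty were at background on wild-type array 1 and homozygous array 2 and detected on the other 4 arrays, so wild type and homozygotes each held 1 array with and 1 without them, while both heterozygous arrays had them.

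Among the 11001 bright genes, 3072 passed the limma test at an adjusted p below 0.05, which is 27.9%. Of these, 1623 were higher (14.8% of bright genes) and 1449 lower (13.2%) in homozygous embryos, and the median difference of all bright genes was 0.12. The lower side held the larger changes. Of 830 called genes with at least a 2-fold change, 653 fell, and at least 4-fold changes were called for 194 genes that fell and 4 that rose. The SD of the difference across bright genes was 0.657, against 0.122 for heterozygous minus wild type, where limma called 0 of them and 48 had an unadjusted p below 0.05. Across the same genes the SD between the arrays of 1 genotype was 0.172 in wild type, 0.231 in heterozygotes and 0.345 in homozygotes. The 4 arrays gave groups that did not overlap for 7964 bright genes (72.4%), against 69.6% of all genes tested. A call comes from the same arrays, so the lack of overlap given below for called genes is a description. It adds no support to their calls. Genes with a symbol, the only ones the lists below hold, were called in 24.8% (15.7% higher, 9.19% lower) and did not overlap in 70.8%, with a median of 0.16. Leaving out 1 wild-type array cut the calls to 814 (without wild-type replicate 1) or 673 (without wild-type replicate 2), whereas leaving out homozygous replicate 1 or 2 gave 3679 or 3055. With the normexp background correction, 2546 bright genes were called higher and 1830 lower.

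**Figure D1:**
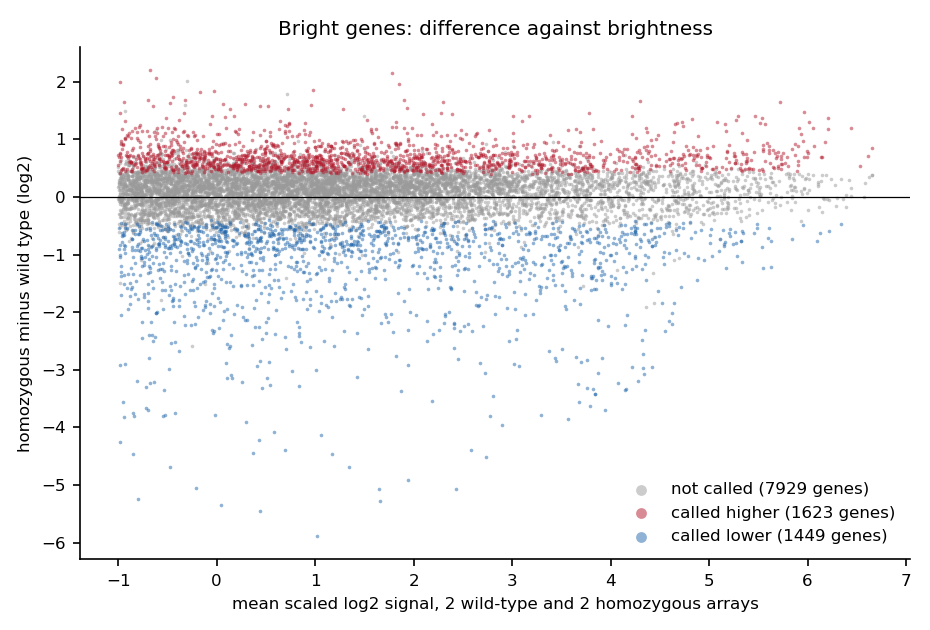
Homozygous minus wild-type difference (log2) of each of 11001 bright genes against its mean scaled log2 signal over the 4 arrays. Red points are the 1623 genes called higher, blue points the 1449 called lower and grey points the 7929 not called, and differences beyond 3 in size lie below 0.

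The plasma proteins of the acute phase rose as a group in homozygous embryos. Of 35 genes on the list, 16 were bright, and 11 of these were called higher and none lower, where 14.8% of all bright genes and 15.7% of those with a symbol were called higher. Their median difference was 1.01 against 0.12 for all bright genes. The list average stood 0.97 and 0.85 above the wild-type mean on the 2 homozygous arrays, and the wild-type arrays were 0.002 above and below their mean on the same average. This list overlaps earlier results on the same arrays and is no independent evidence of its direction. Of the members called, Itih4, Hp and Fga lay below -1 on both wild-type arrays. They were bright only through their homozygous values, so the filter itself favoured their rise in this count.

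Itih4, a heavy chain of the inter-alpha-trypsin inhibitor family, measured -2.04 and -1.93 in wild type and 0.15 and -0.11 in homozygotes. This was a 4.00-fold rise (difference 2.00, SE 0.17, adjusted p = 0.00122), and a dimmer second probe gave 2.07. Both homozygous arrays lay above both wild-type arrays. Haptoglobin, Hp, which binds free haemoglobin, was at -1.79 and -1.73 in wild type and at 0.11 and -0.33 in homozygotes, a 3.14-fold rise (difference 1.65, SE 0.19, adjusted p = 0.00285). The same separation held for Itih3, another heavy chain of that family, with -0.03 and 0.16 against 1.34 and 1.28 (difference 1.25, SE 0.22, adjusted p = 0.011). Hemopexin, Hpx, which carries free heme, rose by 0.97 (SE 0.22) from 0.09 and -0.05, and lay above wild type on both homozygous arrays.

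The 3 fibrinogen chains, which are cleaved to form the fibrin clot, all rose. Fgg measured 1.72 and 1.61 in wild type and 3.12 and 3.10 in homozygotes (2.72-fold, difference 1.44, SE 0.25, adjusted p = 0.00951). Fgb went from 2.07 and 2.11 to 3.10 and 3.30 (difference 1.11, SE 0.26), and Fga from -1.29 and -1.14 to -0.18 and -0.14 (difference 1.05, SE 0.21). In each chain the 2 homozygous arrays lay above both wild-type arrays. Complement C3, the central protease substrate of the complement cascade, rose on both of its bright probes, by 1.05 (SE 0.19) from 1.77 and 1.75 to 2.98 and 2.63, and by 0.81 on the second probe. Complement factor B, Cfb, rose by 1.09 (SE 0.25) from -0.49 and -0.56 to 0.51 and 0.61. The alpha-1-antitrypsin copies Serpina1a (0.74) and Serpina1c (0.82) complete the 11, and Serpina1e, which is not on the list, was called higher as well (0.82, and 1.12 on a second probe); their sequences are nearly identical and the probes may not tell them apart.

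The 5 bright members without a call were Ahsg, Alb, Trf, Itih2 and Ttr. Albumin, the main carrier protein of plasma, measured 5.07 and 5.03 in wild type and 5.48 and 5.57 in homozygotes (difference 0.48, adjusted p = 0.104), and transthyretin, Ttr, was the single bright member with a difference below 0 (-0.26, adjusted p = 0.309). Among the 11 members called, 4 had another probe that passed the filter, and all 4 had the same sign there. For all bright named genes called, that share was 55.4% of 792 genes. Leaving out homozygous replicate 1 or 2 left 9 or 11 members called, and leaving out wild-type replicate 1 or 2 left 2 each, Itih4 and Hp.

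The heterozygous arrays share a slide with the wild-type arrays, and the comparison uses the same wild-type arrays. Limma called no bright member of the list there, and the median difference was 0.14. Itih4 was 1.03 higher and Hp 0.54 higher in heterozygotes without a call, while Fgg was 0.29 and Serpina1c -0.05. The list average of heterozygous array 1 was -0.12 and that of array 2 was 0.44 relative to wild type, so these 2 arrays differed from each other by more than their mean differed from wild type.

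**Figure D2:**
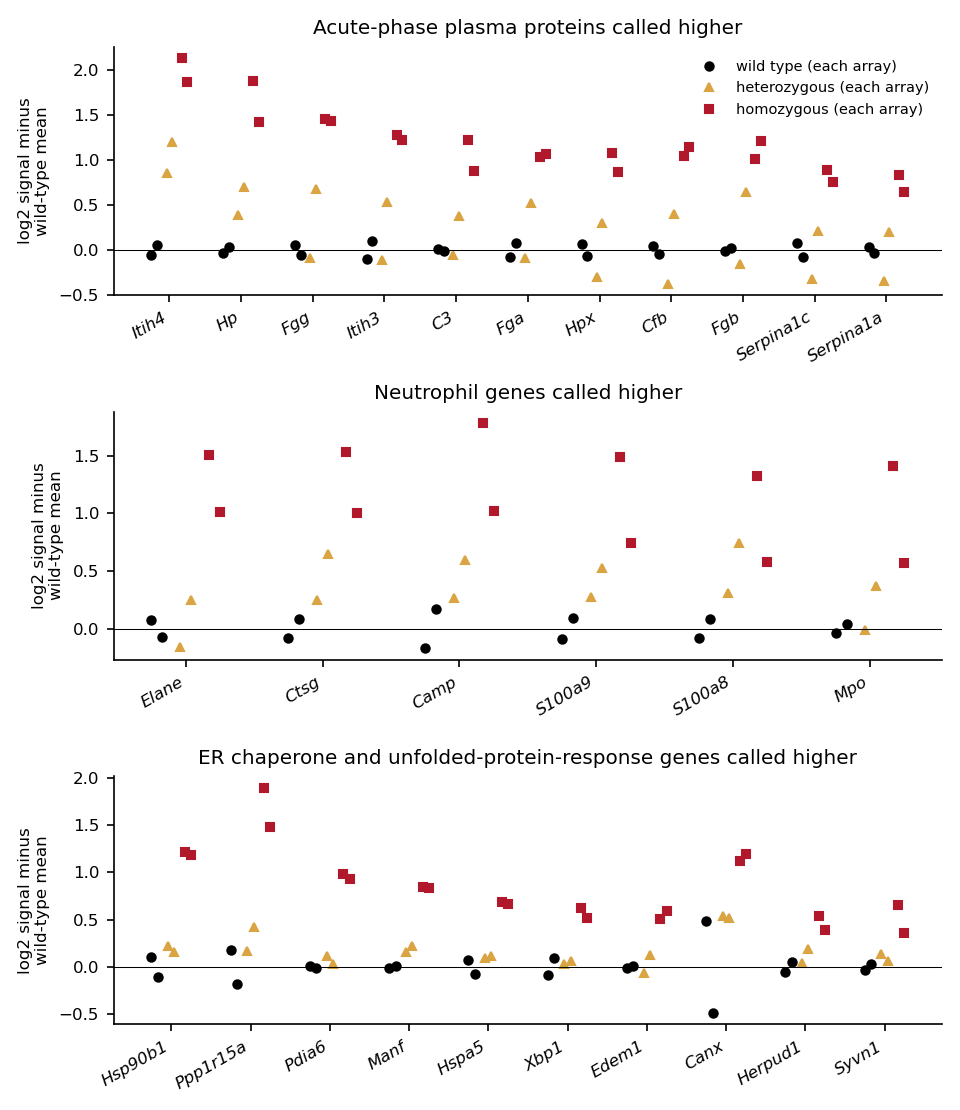
Log2 signal of each of the 6 arrays minus the wild-type mean, for the 11 acute-phase genes, 6 neutrophil genes and 10 endoplasmic reticulum (ER) genes called higher. Circles are wild-type, triangles heterozygous and squares homozygous arrays. In every gene both squares lie above both circles, but the genes were chosen by their call on these arrays. Groups did not overlap in 70.8% of bright genes with a symbol. Among the acute-phase genes both triangles lie above both circles for Itih4 and Hp only.

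The promoters of these genes are shown because the group moved together and because STAT3 has a known binding element. RefSeq promoter sequence (GRCm38.p6) was matched by symbol for 9 of the 11 genes, and 3 of these 9 promoters held TTCNNNGAA, which reads the same on both strands, in the 250 bases before the start. The 3 are printed from 5′ to 3′ on the strand of the gene, with the match in capitals. Fga and Fgb lie in one cluster on chromosome 3 at chr3:83025903-83026152 (plus strand) and chr3:83049864-83050113 (minus strand), and Itih4 lies at chr14:30886226-30886475 (plus strand).
Fga: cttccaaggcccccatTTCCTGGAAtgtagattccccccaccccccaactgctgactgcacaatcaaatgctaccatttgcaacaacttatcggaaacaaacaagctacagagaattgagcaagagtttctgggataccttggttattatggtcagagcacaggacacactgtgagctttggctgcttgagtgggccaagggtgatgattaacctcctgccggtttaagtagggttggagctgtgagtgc
Fgb: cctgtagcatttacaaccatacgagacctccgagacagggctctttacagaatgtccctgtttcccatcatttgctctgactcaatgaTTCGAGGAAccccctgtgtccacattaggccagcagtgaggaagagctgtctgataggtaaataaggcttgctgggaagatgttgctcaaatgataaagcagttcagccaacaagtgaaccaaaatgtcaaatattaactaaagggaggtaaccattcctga
Itih4: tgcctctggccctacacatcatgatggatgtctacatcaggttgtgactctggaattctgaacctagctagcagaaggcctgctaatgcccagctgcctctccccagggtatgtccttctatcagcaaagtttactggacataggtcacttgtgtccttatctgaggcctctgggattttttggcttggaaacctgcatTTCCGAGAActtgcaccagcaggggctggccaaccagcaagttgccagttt
The match began 234 bases before the start in Fga, 162 in Fgb and 51 in Itih4. Over the whole table the element was present in 7.01% of 32817 promoters. It was present in 5.55% of promoters of bright genes, 5.73% of promoters of bright genes called higher and 6.36% of those called lower. The element was thus about as frequent among genes that rose as among those that fell, and a match is only a match of letters.

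Other liver products were called about as often as bright genes with a symbol. Of 29 bright fetal hepatocyte genes, 5 were called higher and 1 lower, 17.2% against 15.7% and 3.45% against 9.19%, with a median of 0.43. Alpha-fetoprotein, Afp, the main plasma protein of the embryo, rose from 5.65 and 5.53 to 6.27 and 6.15 (difference 0.62, SE 0.13, adjusted p = 0.0156). Kininogen, Kng1, the precursor of bradykinin, rose 2.14-fold from 2.06 and 1.90 to 3.22 and 2.94, and apolipoprotein A-II, Apoa2, by 0.80 (SE 0.15), with 0.20 on its second bright probe. In these 3 genes the genotypes did not overlap. Apoe, the apolipoprotein of remnant particles, was at 3.81 and 3.76 against 3.86 and 3.57, and the hepatocyte transcription factor Hnf4a at 0.91 and 1.12 against 1.60 and 0.92, both without a call and with overlapping groups. Coagulation factor X, F10, was called lower on one probe with a difference of -5.08 (4.96 and 4.97 against 1.49 and -1.71) while its second bright probe gave 0.28 without a call. Leaving out homozygous replicate 1 left 4 hepatocyte genes called higher and leaving out homozygous replicate 2 left 9. Without wild-type replicate 1 or 2, 1 and 0 were left. Among 11 bright yolk sac and extraembryonic endoderm genes, 4 rose, namely Fgg, Afp, the laminin Lamb1 (0.40, SE 0.12, with the call lost under 9 of 15 alternatives) and the granule proteoglycan Srgn (1.31). The yolk sac genes called higher made up 36.4% of the bright ones, against 15.7% of bright genes with a symbol. The summed signal of the hepatocyte list was 312 and 305 in wild type and 404 and 358 in homozygotes, and that of the yolk sac list 118 and 113 against 170.0 and 160.1. The part of these levels in the acute-phase result was not tested.

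STAT3 itself was not called. Its bright probe measured 0.81 and 0.81 in wild type, 1.07 and 0.82 in heterozygotes and 1.38 and 1.09 in homozygotes, a difference of 0.43 (SE 0.16, adjusted p = 0.0887). The 2 homozygous arrays lay above the wild-type arrays. The allele leaves the transcript in place, so this value checks no label.

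Of 22 bright components of JAK-STAT signalling, 3 were called higher and 1 lower, with a median of 0.20. These 13.6% and 4.55% lay below the 15.7% and 9.19% of bright genes with a symbol, so the values below describe single genes. Socs1, a feedback inhibitor of JAK kinases, rose from -1.34 and -1.41 to -0.17 and -0.32 (difference 1.13, SE 0.17, adjusted p = 0.00665). Ptpn2, a phosphatase of JAK and STAT proteins, rose by 0.64 (SE 0.12), although dimmer probes gave 0.15 and -2.46, and Socs7 rose by 0.47 (SE 0.14), a call lost under 8 of 15 alternatives. Lifr, the receptor chain for leukaemia inhibitory factor, fell by 0.57 (SE 0.13) on its brightest probe, and 2 other probes gave 0.11 and 0.26. Socs3, the classical STAT3-induced inhibitor, was at 1.36 and 1.59 in wild type and 1.42 and 0.89 in homozygotes (difference -0.32, adjusted p = 0.266), with overlapping groups. The shared receptor chain Il6st was at -0.39 and -0.57 against -0.33 and 0.38 (difference 0.50, adjusted p = 0.163). The fits without homozygous replicate 1 or 2 gave 4 or 6 components called higher and 3 or 0 lower, and leaving out wild-type replicate 1 or 2 gave 1 or 0 higher and 0 lower.

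Among 26 bright genes on a list of STAT3 targets, 8 were called higher and 2 lower, with a median of 0.31. The shares were 30.8% and 7.69% against 15.7% and 9.19% of bright genes with a symbol. Of those 8, 4 (Hp, Fga, Fgb and Fgg) are the acute-phase genes already described, so the 30.8% is not separate from that result. The others were Socs1, Bcl3, Cebpb and Ccnd1. Bcl3, a nuclear partner of NF-kappa B, rose from -1.09 and -0.79 to 0.24 and -0.12 (difference 1.00, SE 0.18, adjusted p = 0.0108), and Cebpb, a transcription factor of the acute phase, from 2.10 and 2.24 to 2.90 and 2.67 (difference 0.62, SE 0.14). Ccnd1, the cyclin of early G1, passed at 0.46 (SE 0.13), but the call was lost under 11 of 15 alternatives. For these 3 genes both homozygous arrays lay above both wild-type arrays. Among other targets with roles in proliferation and survival, Myc was at 1.42 and 1.44 against 1.11 and 1.08 (difference -0.34, adjusted p = 0.0857). Mcl1 differed by 0.19, with 0.59 on its second bright probe, and Bcl2l1 by 0.06. None of these was called on its brightest probe. Lifr and the tumour necrosis factor receptor Tnfrsf1a (-0.73, SE 0.19) were the 2 called lower. Leaving out homozygous replicate 1 or 2 gave 11 or 6 targets called higher and 3 or 0 lower, and leaving out either wild-type array gave 2 higher and 0 lower.

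Genes of neutrophil granules rose together. Neutrophil precursors arise in the fetal liver and store proteases and antimicrobial peptides in granules. Of 24 list genes 8 were bright, and 6 of these were called higher and none lower, with a median of 1.05. That was 75% called higher against 15.7% of bright genes with a symbol. Camp, the cathelicidin peptide, measured -0.70 and -0.35 in wild type and 1.26 and 0.50 in homozygotes (2.65-fold, difference 1.40, SE 0.28, adjusted p = 0.0146), and its second bright probe gave 1.34. Neutrophil elastase, Elane, rose from 0.18 and 0.03 to 1.61 and 1.12 (difference 1.26, SE 0.22, adjusted p = 0.00958). Cathepsin G, Ctsg, rose from -0.79 and -0.62 to 0.83 and 0.29 (difference 1.27, SE 0.23). In all 6 genes homozygous array 1 was higher than homozygous array 2, and both were above wild type. The calprotectin subunits S100a9 (difference 1.12, SE 0.26) and S100a8 (0.95, SE 0.27) and myeloperoxidase Mpo (0.99, SE 0.29) had the same order. The list average was 1.13 on homozygous array 1 and 0.58 on array 2, and 0.17 and 0.37 on the heterozygous arrays, relative to wild type. The summed signal of the 21 tested members was 63.9 and 55.0 in homozygotes and 40.8 and 40.2 in wild type, and Cxcr2 and Fpr2 were not well above background. The fits without homozygous replicate 1 or 2 gave 4 or 6 members called, and leaving out either wild-type array gave 0.

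Other blood and immune lists moved less. Of 14 bright macrophage genes, 4 rose (28.6% against 15.7% of bright genes with a symbol): Cx3cr1 (0.57, SE 0.13), F13a1 (0.53, SE 0.12, with -0.52 on a dimmer probe), Fcer1g (0.56, SE 0.14) and the complement component C1qc (0.53, SE 0.14). Lyz1, a lysozyme, fell from 1.08 and 1.30 to -0.03 and -1.66 (difference -2.04, SE 0.48, adjusted p = 0.0256). The summed signal of the macrophage list was 72.0 and 62.6 in homozygotes against 60.0 and 61.2 in wild type. Of 6 bright megakaryocyte and mast cell genes, 3 rose (50% against 15.7%), among them the mast cell protease Cpa3, from -0.39 and -0.38 to 0.36 and 0.75 (difference 0.94, SE 0.16, adjusted p = 0.00941), and the stem cell factor receptor Kit (0.77, SE 0.16). Both homozygous values of these 2 genes were above the wild-type values. Of 37 bright erythroid genes, 3 were called higher and 1 lower, 8.11% and 2.7% against 15.7% and 9.19% of bright genes with a symbol. The mitochondrial iron importer Slc25a37 rose by 1.07 (SE 0.23), with 0.17 on its second bright probe. Of 8 bright globins, Hbb-bt (1.30, SE 0.21) and Hba-a2 (0.54, SE 0.13) were called higher, the embryonic Hbb-y differed by 0.38 (adjusted p = 0.129) and Hbb-b2 by -0.40 (adjusted p = 0.135), and globin probes may not tell the copies apart. With either wild-type array left out, no macrophage, mast cell or erythroid gene was called higher.

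Interferon-response and antigen-presentation genes rose as a group: 9 of 20 bright members were called higher and 1 lower, with a median of 0.72. These 45% and 5% compare with 15.7% and 9.19% of bright genes with a symbol. Irf1, a transcription factor that interferon gamma induces, rose from -0.14 and -0.07 to 1.16 and 0.79 (2.12-fold, difference 1.08, SE 0.17, adjusted p = 0.00682). Trim25, a ubiquitin ligase of the RIG-I pathway, rose from 0.21 and 0.48 to 1.71 and 1.19 (2.14-fold, SE 0.21), and Bst2, which tethers budding virus, from -1.53 and -0.80 to -0.12 and -0.07 (difference 1.07, SE 0.24). In these 3 genes the genotypes did not overlap. Class I histocompatibility genes followed, with H2-K1 at 0.86 (SE 0.19), H2-D1 at 0.76 (SE 0.20), H2-T23 at 0.68 (SE 0.17) and H2-K2 at 1.13 (SE 0.18) on one probe and 0.68 on another, all called higher; their probes may not tell the copies apart. Irf2, which antagonises Irf1, fell from -0.27 and -0.14 to -0.76 and -1.14 (difference -0.74, SE 0.16, adjusted p = 0.0206). The list average stood 0.74 and 0.35 above wild type on the homozygous arrays and 0.04 and 0.03 on the heterozygous arrays. Without homozygous replicate 1, 5 members were called higher, and without homozygous replicate 2, 12. Without wild-type replicate 1 or 2, 0 and 1 were.

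Chaperones of the endoplasmic reticulum, which fold secreted and membrane proteins and are induced by the unfolded protein response, rose with little difference between the homozygous arrays. Of 22 bright members 10 were called higher and none lower, with a median of 0.49, and the list average was 0.52 on both homozygous arrays. That was 45.5% called higher against 15.7% of bright genes with a symbol. Hsp90b1, the Hsp90 of this compartment, measured 3.86 and 3.66 in wild type and 4.97 and 4.94 in homozygotes (2.29-fold, difference 1.20, SE 0.13, adjusted p = 0.00241). Ppp1r15a, which restores translation after stress, rose from 1.24 and 0.88 to 2.95 and 2.54 (3.23-fold, difference 1.69, SE 0.21, adjusted p = 0.00325). Pdia6, a disulfide isomerase, rose from 4.17 and 4.15 to 5.14 and 5.09 (difference 0.96, SE 0.12), with 0.08 on its second bright probe. The groups did not overlap in any of the 10 genes, which were chosen by their call, and 70.8% of bright genes with a symbol had such groups. Hspa5, the compartment's Hsp70, rose by 0.67 (SE 0.12), the secreted chaperone Manf by 0.84 (SE 0.12) and the transcription factor Xbp1 by 0.57 (SE 0.13). On the heterozygous arrays 19 of the 22 members were above the wild-type mean, with an average of 0.03 and 0.17 and no call. Leaving out homozygous replicate 1 or 2 gave 10 or 9 members called, and leaving out wild-type replicate 1 or 2 gave 4 or 3.

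The machinery that moves proteins through the secretory pathway did not share that direction. Of 53 bright members, 9 rose and 7 fell, with 13.2% lower against 9.19% of bright genes with a symbol. The oligosaccharyltransferase subunits Ddost (1.14, SE 0.15) and Rpn1 (0.93, SE 0.12) rose, and so did the coat protein Sec24c (0.94, SE 0.14). Subunits of the Sec61 channel fell: Sec61a1 went from 4.55 and 4.67 to 3.49 and 2.49 (difference -1.62, SE 0.32, adjusted p = 0.0142), Sec61g fell by 0.72 (SE 0.12) and Sec61b by 0.57 (SE 0.12), while a second probe of Sec61b gave 0.14. Cytosolic chaperones had 7 of 28 bright members called higher and 1 lower (25% and 3.57% against 15.7% and 9.19%), with a median of 0.34. Hsp90ab1, the constitutive cytosolic Hsp90, rose from a mean of 4.93 to 6.22 and 6.17 (2.40-fold, difference 1.26, SE 0.13, adjusted p = 0.00201), and its cochaperones Fkbp4 (0.83, SE 0.13) and Ptges3 (0.75, SE 0.12) rose with it, whereas the cochaperone Stip1 fell by 0.50 (SE 0.12). Other bright probes of Ptges3 gave 0.34, -0.008 and 0.50. Genes of the amino acid starvation response, led by the transcription factors Cebpb (0.62), Atf4 (0.65, SE 0.15) and Atf5 (0.63, SE 0.16), had 5 of 19 bright members called higher (26.3% against 15.7%) and none lower. Atf4 went from 4.29 and 4.27 to 5.09 and 4.77, and its dimmer second probe gave -0.30. Without wild-type replicate 1 or 2, no gene of that list was called, and 1 cytosolic chaperone and 3 or 2 secretory genes were called higher. Without homozygous replicate 1, 11 cytosolic chaperones and 14 secretory genes were called higher.

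Of 46 bright genes of mitosis, 13 were called higher and 1 lower, 28.3% and 2.17% against 15.7% and 9.19% of bright genes with a symbol, with a median of 0.25. Cdc20, the activator of the anaphase-promoting complex, measured 2.87 and 2.83 in wild type and 4.00 and 3.84 in homozygotes (2.10-fold, difference 1.07, SE 0.13, adjusted p = 0.003). Ccnb2, a mitotic cyclin, rose from 1.76 and 1.75 to 2.76 and 2.60 (difference 0.92, SE 0.13), and Ccnb1 by 0.60 (SE 0.12), where its other 2 probes gave 0.12 and 0.09. Both homozygous arrays were above wild type in these genes. Cdca8, of the chromosomal passenger complex, rose by 0.80 (SE 0.14) on its brightest probe, but its second bright probe gave -0.71. The kinetochore subunit Spc24 fell by 0.66 (SE 0.13) while its partner Spc25 rose by 0.44 (SE 0.13). Only 29 of the 46 members lay above 0. The fits without homozygous replicate 1 or 2 gave 11 or 12 higher and 5 or 2 lower, and leaving out wild-type replicate 1 or 2 gave 2 or 1 higher. Of 41 bright DNA replication genes 5 rose and 3 fell, with a median of 0.13. These 12.2% and 7.32% lay below the 15.7% and 9.19% of bright genes with a symbol. Rrm2, the ribonucleotide reductase subunit, rose by 0.73 (SE 0.14), whereas Cdc6, which loads the replicative helicase, fell by 1.51 (SE 0.27). Among 19 bright regulators of G1, 6 rose (31.6%) and none fell, including the pocket proteins Rb1 (0.69, SE 0.13) and Rbl1 (0.70, SE 0.15, with -0.20 on a dimmer probe) and the inhibitor Cdkn2c (0.65, SE 0.12). Without either wild-type array no replication or G1 gene was called.

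Replication histone genes went the other way. This list was made by symbol after the values were seen, and its counts are a description only. Histone genes of this class are transcribed in S phase, and their messenger RNAs end in a stem-loop and carry no poly(A) tail. Of 22 bright members 11 were called lower and 1 higher, with a median of -0.52. These 50% and 4.55% compare with 9.19% and 15.7% of bright genes with a symbol. H3c7 measured 2.48 and 2.50 in wild type and -0.02 and -0.18 in homozygotes, which was 6.03-fold lower (difference -2.59, SE 0.14, adjusted p = 0.000504). The bright H2A gene H2ac22 fell from 6.25 and 6.23 to 5.12 and 4.92 (difference -1.22, SE 0.13), H2ac12 from 6.45 and 6.50 to 5.85 and 5.58 (difference -0.76, SE 0.14) and H2ac10 from 5.98 and 5.93 to 5.30 and 5.18 (difference -0.71, SE 0.12). These H2A copies are nearly identical, and the probes may not tell them apart. H3c4, another H3 gene, was at 4.26 and 4.32 against 4.25 and 4.22 (difference -0.06, adjusted p = 0.751), and the linker histone H1f2 rose from 1.07 and 1.09 to 1.95 and 1.68. The list average was -0.42 and -0.71 on the homozygous arrays and -0.02 and -0.13 on the heterozygous arrays. Leaving out wild-type replicate 1 or 2 left 4 members called lower.

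**Figure D3:**
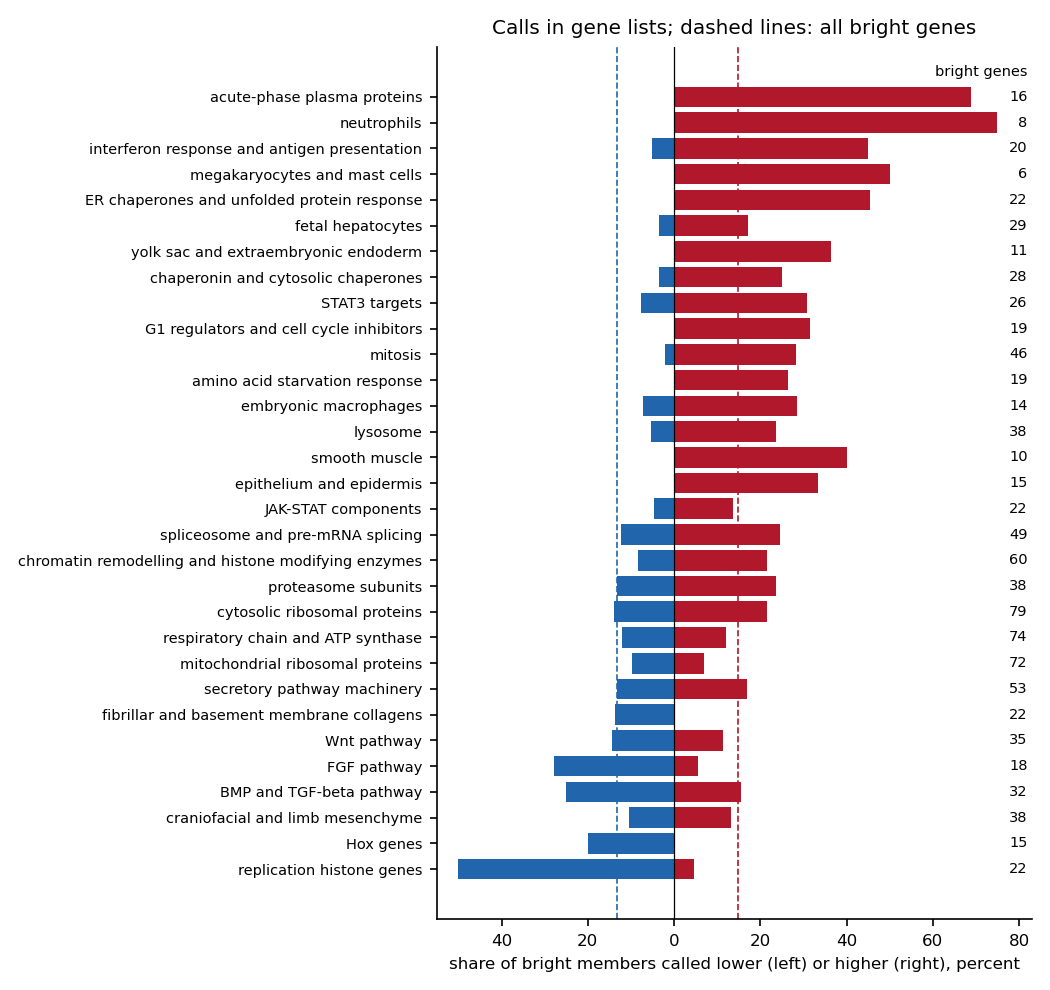
Share of the bright members of 31 gene lists called higher (red bars, to the right) or lower (blue bars, to the left) in homozygous embryos, with the number of bright members at the right. Dashed lines mark the 14.8% higher and 13.2% lower of all bright genes; acute-phase and neutrophil genes reach furthest to the right and replication histone genes furthest to the left.

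The large complexes, whose subunits are made in fixed proportions, held members called in both directions. Among 79 cytosolic ribosomal protein genes, all bright, 17 rose and 11 fell, with a median of 0.16. These 21.5% and 13.9% compare with 15.7% and 9.19% of bright genes with a symbol. Rplp2, a stalk protein, rose from 5.92 and 5.77 to 7.07 and 7.02 (difference 1.20, SE 0.15, adjusted p = 0.00356) and Rpl27 from 4.99 and 4.76 to 6.21 and 6.11 (difference 1.28, SE 0.14), while a second probe of Rpl27 gave 0.19. Rps3a1 fell from 4.75 and 4.73 to 3.42 and 3.61 (difference -1.22, SE 0.13, adjusted p = 0.00228), and its second bright probe gave -1.28. Of the 28 genes called, 17 had another probe that passed the filter, and 8 of the 17 had the same sign there. Processed pseudogenes of ribosomal protein genes can share these probes. Leaving out wild-type replicate 1 or 2 left 7 or 4 higher and 1 lower.

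Mitochondrial ribosomal proteins (5 of 72 higher, 7 lower, median 0.03) and the respiratory chain with ATP synthase (9 of 74 higher, 9 lower, median 0.06) held both calls. Mitochondrial ribosomal proteins were called higher in 6.94% and lower in 9.72%, and respiratory genes in 12.2% each way, against 15.7% and 9.19% of bright genes with a symbol. Within ATP synthase, Atp5o of the stalk fell from 3.55 and 3.58 to 1.84 and 1.55 (3.66-fold lower, difference -1.87, SE 0.15, adjusted p = 0.000986), whereas the catalytic subunit Atp5b rose from 4.55 and 4.46 to 5.35 and 5.11 (difference 0.73, SE 0.14). The 3 genes for subunit c split as well, with Atp5g3 at 0.86 (SE 0.14) and Atp5g2 at 0.55 (SE 0.14, with -0.08 on its second bright probe) called higher and Atp5g1 at -0.77 (SE 0.14) called lower. The groups did not overlap in any of these 5 called genes, as was so for 70.8% of bright genes with a symbol. Mrps35 (-1.37, SE 0.16) and Mrpl32 (-1.17, SE 0.12) fell, and Mrps18b (0.74, SE 0.12, with 0.02 on a dimmer probe) rose. Leaving out homozygous replicate 1 gave 6 respiratory genes higher and 15 lower, and leaving out wild-type replicate 1 or 2 gave 1 or 0 higher and 2 lower.

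In the proteasome 9 of 38 bright subunits rose and 5 fell, 23.7% and 13.2% against 15.7% and 9.19% of bright genes with a symbol. Psma2 of the core ring rose from 3.09 and 3.06 to 3.91 and 4.01 (difference 0.89, SE 0.12), Psmb2 of the inner ring fell from 3.10 and 3.43 to 2.18 and 1.96 (difference -1.19, SE 0.22), and the ubiquitin receptor Adrm1 fell from 3.01 and 2.96 to 0.18 and -0.46 (difference -3.12, SE 0.22, adjusted p = 0.000763). Each of the 3 had groups that did not overlap. Of 14 subunits called, 4 had another filtered probe, and in none of these 4 did it share the sign. Spliceosome genes had 12 of 49 bright members higher and 6 lower (24.5% and 12.2%), with Snrnp70 of the U1 particle higher by 0.92 (SE 0.12) and the core protein Snrpf lower by 1.23 (SE 0.13). Translation initiation factors included Eif4a1, the cap-complex helicase, higher by 1.00 (SE 0.14) from 4.04 and 3.87 to 5.05 and 4.87, and Eif1, higher by 0.83 on its brightest probe and at -1.05 on its second. Without wild-type replicate 1 or 2, 1 or 0 proteasome subunits were called higher and 3 or 2 lower, 3 or 1 spliceosome genes higher and 1 lower, and 2 or 0 translation factors higher.

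**Figure D4:**
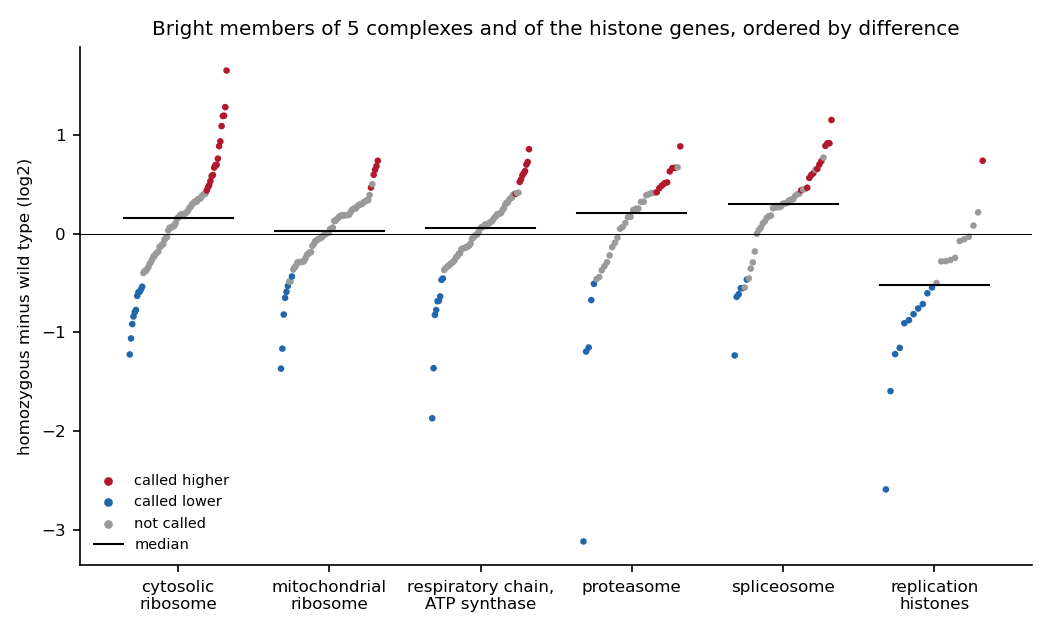
Homozygous minus wild-type difference (log2) of every bright member of 5 complexes and of the replication histone genes, ordered by value within each. Red points are called higher, blue points called lower and grey points not called, and the black line is the median; the 5 complexes have both colours and medians between 0.03 and 0.30, and the histone median is -0.52.

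Chromatin regulators had 13 of 60 bright members higher and 5 lower, 21.7% and 8.33% against 15.7% and 9.19% of bright genes with a symbol. The lysine demethylases Kdm1a (0.97, SE 0.13) and Kdm6b (1.05, SE 0.14) rose, and Kdm1a went from 2.48 and 2.57 to 3.54 and 3.46. The acetyltransferase Crebbp fell from 0.83 and 0.83 to -1.05 and -1.10 (difference -1.91, SE 0.13, adjusted p = 0.00068). The maintenance methylase Dnmt1 fell by 0.77 (SE 0.12), from 0.48 and 0.37 to -0.37 and -0.31, and the de novo methylase Dnmt3a rose by 0.59 (SE 0.13). Of the 18 called, 6 had another filtered probe, and 1 of the 6 had the same sign there. Cytoskeletal genes were also split. Actb, cytoplasmic beta actin, rose from 6.30 and 6.16 to 7.09 and 7.07 (difference 0.85, SE 0.14, adjusted p = 0.00765), gamma actin Actg1 fell from 5.48 and 5.50 to 4.97 and 4.89 (difference -0.56, SE 0.12) with 4 other probes between -0.05 and 1.75, and the tubulin Tuba1b rose from 5.81 and 5.59 to 6.69 and 6.62 (difference 0.96, SE 0.14) with 0.20 on its second bright probe. Cofilin, Cfl1, which severs actin filaments, fell by 0.98 (SE 0.16) on its brightest probe and gave 0.34 and -0.53 on others. Leaving out homozygous replicate 1 or 2 gave 10 or 19 chromatin genes higher and 10 or 5 lower, and leaving out wild-type replicate 1 or 2 gave 4 or 3 higher and 2 lower.

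The BMP and TGF-beta pathway, which patterns the embryo through Smad proteins, had 8 of 32 bright members lower and 5 higher. These 25% and 15.6% compare with 9.19% and 15.7% of bright genes with a symbol. The median was -0.10, but it was 0.35 on the second brightest probes, 0.07 on the mean of bright probes and 0.05 without the brightness limit. Smad7, the inhibitory Smad, fell from 0.96 and 1.18 to -0.16 and -0.74 (difference -1.52, SE 0.23, adjusted p = 0.00598), follistatin, Fst, by 0.78 (SE 0.14) and the ligand Bmp7 by 0.80 (SE 0.16), from 0.69 and 0.70 to 0.04 and -0.25. In these genes the genotypes did not overlap. The corepressor Tgif1 rose by 0.89 (SE 0.13). The receptor Tgfbr1 fell by 1.04 (SE 0.12) on its brightest probe, from 2.97 and 2.93 to 1.90 and 1.92, and another probe gave 0.41. In the FGF pathway, which acts through receptor tyrosine kinases and ERK, 5 of 18 bright members fell and 1 rose, 27.8% lower against 9.19% of bright genes with a symbol, while the median was 0.22 and 12 of 18 members lay above 0. The feedback inhibitors Spry1 (2.38 and 2.51 against 1.44 and 1.03, difference -1.21, SE 0.17, adjusted p = 0.00504) and Spry4 (difference -2.01, SE 0.47) fell. Fgfr1 fell by 0.98 on its brightest probe, and its other probes gave 1.48 and -0.14. Leaving out wild-type replicate 1 or 2 gave 2 BMP and TGF-beta members and 1 FGF member called lower and 0 higher. Without homozygous replicate 1, the BMP and TGF-beta list had 7 lower and 6 higher and the FGF list 5 lower and 4 higher. Without homozygous replicate 2, they had 5 lower and 4 higher, and 3 lower and 3 higher.

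Of 35 bright Wnt pathway genes, 4 were called higher and 5 lower, 11.4% and 14.3% against 15.7% and 9.19% of bright genes with a symbol, so the values below describe single genes. Wnt5a, a ligand of the noncanonical branch that shapes limbs and face, rose from 0.22 and -0.12 to 1.55 and 2.25 (3.61-fold, difference 1.85, SE 0.25, adjusted p = 0.00442). Notum, a secreted enzyme that inactivates Wnt ligands, rose from -0.48 and -0.77 to 0.92 and 0.88 (difference 1.53, SE 0.16, adjusted p = 0.00204). Both kept their call with each of the 6 arrays left out in turn. The intracellular inhibitors Nkd2 (-1.21, SE 0.16, with 0.17 on a dimmer probe) and Nkd1 (-0.80, SE 0.14) fell, as did the agonist Rspo3 (-0.71, SE 0.13). In the insulin-like growth factor list 4 of 27 fell (14.8% against 9.19%), including the binding protein Igfbp4, from 0.94 and 0.74 to -0.50 and -0.19 (difference -1.18, SE 0.16, adjusted p = 0.00424), and Akt1 rose by 0.87 (SE 0.18). Leaving out wild-type replicate 1 or 2 gave 2 Wnt genes called higher and 3 or 1 lower, and 1 insulin-like growth factor gene called lower.

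Among transcription factors of face and limb mesenchyme, 4 of 38 bright members fell and 5 rose. These 10.5% and 13.2% were near the 9.19% and 15.7% of bright genes with a symbol, so the values below describe single genes. The 4 that fell had large changes. Of these, Osr1 and Lhx6 lay below -1 on both homozygous arrays and were bright only through their wild-type values. Osr1, of lateral and intermediate mesoderm, fell from 0.45 and 0.34 to -1.43 and -1.80 (4.03-fold lower, difference -2.01, SE 0.19, adjusted p = 0.00156), Twist1, which keeps mesenchyme undifferentiated, from 2.33 and 2.06 to 0.93 and 0.99 (difference -1.23, SE 0.15), and Lhx6, of the jaw and forebrain interneurons, from 0.63 and 0.48 to -1.32 and -1.34 (3.69-fold lower, SE 0.16), where a second probe gave -0.74. All 4 kept their call with each array left out in turn. Prrx1 fell by 1.72 (SE 0.18) on one probe and differed by -0.06 on another. Of 15 bright Hox genes 3 fell and none rose, with a median of -0.34, and leaving out homozygous replicate 1 or 2 gave 7 or 1 called lower and leaving out either wild-type array gave 0. The Hox genes called lower made up 20% of the bright ones, against 9.19% of bright genes with a symbol. Collagen genes had 3 of 22 lower (Col5a2, Col11a2 and Col8a2) and none higher, 13.6% lower against 9.19% of bright genes with a symbol. Col8a2 fell by 0.73 on its brightest probe, and a dimmer probe gave 0.83. The list of smooth muscle genes had 4 of 10 bright members higher (40% against 15.7% of bright genes with a symbol), namely Pdgfrb (0.51), Smtn (0.81, SE 0.17, with -0.23 on a dimmer probe), Tagln (0.55, SE 0.12) and Acta2 (0.61, SE 0.16), which rose from 3.25 and 3.01 to 3.63 and 3.85. Without either wild-type array no smooth muscle gene was called.

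How far the probes of one gene gave the same answer was measured in the 1260 genes with at least 2 bright probes. The differences of the brightest and the second probe had the same sign in 56.8% of these genes, with a Pearson correlation across genes of 0.162 and a Spearman correlation of 0.169. These are descriptions across genes of the same 4 arrays. For heterozygous minus wild type the Pearson correlation was 0.421. With both probes at 3 or brighter it was 0.255 for the homozygous comparison in 149 genes, with the same sign in 55.7%. Repeated spots of one probe behaved differently: in 183 bright probes spotted 10 times, the SD of the difference among the 10 spots had a median of 0.0423, against an SD of 0.396 between these probes. Where one of the 2 probes lay at or below -1, which held for 111 genes, the other did so too in 10, and it was above 0 in 61. Where one lay at or above 1, which held for 37 genes, the other did so too in 3 and was below 0 in 9. Differences thus repeated within a probe and often did not repeat between probes of a gene.

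**Figure D5:**
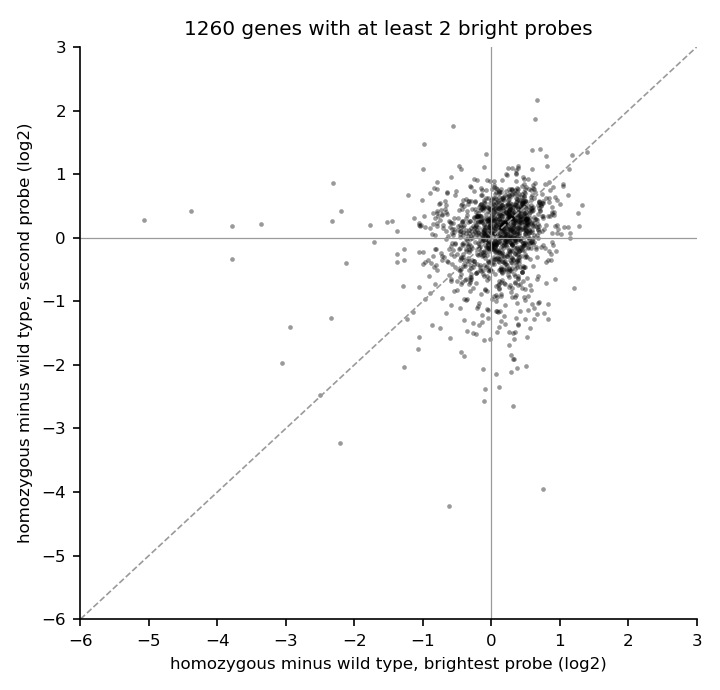
Homozygous minus wild-type difference (log2) of the second brightest probe against that of the brightest probe, for 1260 genes with at least 2 bright probes; the dashed line marks equal values. Same-sign pairs make up 56.8%, and of 26 genes with one probe at or below -2 the other probe is there too in 2.

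The lower calls were not spread evenly over the array. Among bright genes without a symbol, 640 of 2194 were called lower (29.2%) and 244 higher (11.1%), 40.3% in all, and the groups did not overlap in 78.6%, whereas genes with a symbol had 9.19% lower and 15.7% higher. By the number in the probe name, 16.9% of the 7448 bright probes of the A_55 series were called lower, against 7.08% of 2896 in the A_51 series and 9.85% of 1625 in the A_52 series. Among probes with a symbol the share was 12.1% in the A_55 series and 8.20% in the A_52 series. Differences at or below -1 made up 8.66% of the A_55 probes and 2.11% of the A_51 probes. Rises were also more frequent in the A_55 series. There 15.3% of bright probes were called higher, against 13.2% in the A_51 and 11.6% in the A_52 series. Differences at or above 1 made up 2.40% of the A_55 probes and 0.66% of the A_51 probes.

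In 33 of the 1260 genes all bright probes were called higher, in 24 all were called lower, and in 49 the probes were called in opposite directions. On the higher side, those whose weakest probe changed most included Camp, Lbr, Serpina1e, C3, Plagl1, Ssbp2, Ran, Pebp1 and H2-K2. Ran, the GTPase of nuclear transport, rose from 4.92 and 4.88 to 5.56 and 5.64 (difference 0.71, SE 0.12) and by 1.39 on the second probe. Plagl1, an imprinted zinc finger growth regulator, rose from 5.25 and 5.16 to 5.86 and 6.16 (difference 0.81, SE 0.15) and by 1.28, although 2 dimmer probes gave -0.69 and 0.12. Lbr, the lamin B receptor, rose by 0.85 (SE 0.18) and 0.88, from 1.45 and 1.37 to 2.12 and 2.40. Both homozygous arrays were above wild type in each.

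On the lower side the rule gave Gcm1, Zfp967, Brsk1, Rps3a1, Pdgfa, Mapk1ip1, Apip, Tcof1, Mrpl40 and Pgap2. Gcm1, a transcription factor of placental trophoblast, was at 5.63 and 5.83 in wild type and 4.08 and 2.97 in homozygotes (difference -2.21, SE 0.37, adjusted p = 0.00859), and its other probes gave -3.23 and -2.29. Trophoblast markers were otherwise low: of 30 with a probe, 13 (among them Tpbpa and Prl3c1) were not well above background on both arrays of any genotype, and the summed signal of the list without Gcm1 was 18.1 and 19.7 in wild type, 22.7 and 19.8 in heterozygotes and 19.5 and 20.3 in homozygotes. Pdgfa, a ligand for mesenchymal growth, fell from 3.07 and 3.10 to 2.14 and 1.93 (difference -1.05, SE 0.15) and by 1.56 on its second probe. Tcof1, the nucleolar protein mutated in Treacher Collins syndrome and needed for ribosome production in neural crest, fell from 2.00 and 2.22 to 1.02 and 0.62 (difference -1.29, SE 0.19) and by 0.77. Brsk1, a kinase of neuronal polarity, fell by 1.28 (SE 0.19) and 2.03. The groups did not overlap in any of these genes.

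The brightest genes with a call and groups that did not overlap included Actb, Hba-a2, Rplp2 and Tuba1b on the higher side and Ndor1, H2ac12, Med16, H2ac22 and H2ac10 on the lower side. Med16, a Mediator subunit, fell from 6.27 and 6.16 to 5.45 and 5.50 (difference -0.74, SE 0.13), and its second bright probe gave -0.25 without a call. Ndor1, a reductase of iron-sulfur protein assembly, had a difference of -0.58 (SE 0.13), and its dimmer second probe gave 0.55.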

How the data were processed

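Each of the 6 arrays was 1 Cy3 hybridisation of embryo RNA. The authors deposited the scanner output of Agilent Feature Extraction 11.0.1.1 (per the submitters' processing notes), whose processed signal is a background-subtracted intensity per spot, and a table of normalized log2 values whose scale and centring are not given; these deposited log2 values had a median of 6.72 on each array and served as an alternative. For this account log2 of the processed signal was taken, outlier and control spots were left out, spots of a probe were averaged and each array's 75th percentile was subtracted. The filter took 29905 probes, each well above background in a complete genotype pair, a gene is its brightest kept probe, and limma 3.58.1 in R 4.3.3 (lmFit, eBayes) was fitted on all 6 arrays with Benjamini-Hochberg adjustment over 24353 genes. The normexp alternative (offset 50) used median spot signals, the ones the files hold. On simulated data of this design, 7.46%, 53.7% and 98.5% of genes changed 1.5-, 2- and 4-fold were recovered, with 11.7% false calls. The simulation changed 67, 67 and 66 of 24293 genes. It gave each gene the same spread in every genotype and held no slide effect, so these shares need not hold for the calls here. The arrays' small number limits precision, and p-values measure the spread between these samples, which may be technical. The gene lists, the comparison and the rules were chosen with earlier results of these arrays known. Genes named are, per list, up to 4 bright members with the smallest p, besides Stat3, the 10 genes per direction with the most strongly concordant bright probes and the 5 brightest genes called per direction; other members named were chosen after their values were seen, as was the histone list. Some genes that these rules select are not reported here.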

Additional observations from a re-analysis of the deposited data

How the results depend on the processing

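Of 3072 calls among bright genes (1623 higher, 1449 lower), none changed sign under the other scalings, fits and left-out arrays, while 3041 of them had the same sign on the mean of bright probes and 221 of 362 on the second brightest probe. Fits on 4 arrays, without a heterozygous array or with the replicate number as a block leave each bright gene's difference as it was. No sign could change in them. Leaving out 1 wild-type or homozygous array could not change the sign either for any gene whose groups did not overlap. Scaling to the array median shifts the difference of every gene by the same amount. The unchanged signs in these settings are therefore no support for the calls. The normexp correction with the 75th percentile gave 2546 higher, testing without a filter on dim probes gave 2004 (924 higher), and asking for at least 2-fold gave 830 (653 lower). Dropping the brightness limit gave 6149 (3230 higher, 2919 lower). The second brightest probe, measured for 1340 of these genes, gave 342 calls (147 higher, 195 lower). Leaving out 1 array gave 673 to 3679 calls (142 to 1855 higher, 531 to 1824 lower), with 814 without wild-type replicate 1, 673 without wild-type replicate 2 and 2279 without either heterozygous array, the value of the fit on 4 arrays alone. Stat3 passed at 0.42 and 0.40 with normexp (75th percentile, quantile) and at 0.57 without homozygous replicate 2, over a range of 0.28 to 0.57 with 1 array left out. Other probes reversed Eif1 (-1.05 on the second probe, -0.11 as the mean), Fgfr1 (1.48, 0.25), Mvk (0.19), Cdca8 (-0.71), Kdm2a (-0.011), Cfl1 (0.34), Snrpn (-0.062), F10 (0.28), Plvap (0.27) and Gsr (-0.15); Phlda2, not called, ran from -0.50 to 0.28 with 1 array left out and reversed without wild-type replicate 2 (0.28) or homozygous replicate 2 (0.16). The cause was not tested. Replicate numbers did not pair the arrays (correlations of deviations -0.18, 0.04 and 0.46), and the fit with the replicate number as a block called 2943 (1527 higher, 1416 lower), with Stat3 at 0.43. Of 237 named genes with a call, 237 kept it with normexp and the 75th percentile, 232 with normexp and quantile normalization, 203 on 4 arrays alone, 221 and 212 without homozygous replicate 1 and 2, and 78 and 55 without wild-type replicate 1 and 2, where the lone wild-type array is assumed to vary like the other groups. The median of all genes moved from 0.08 to 0.20 with normexp and the 75th percentile.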
